A study of Homo sapiens with 9 samples.

Results

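Krüppel-like factors (KLFs) are transcription factors that share a C-terminal zinc finger domain and bind GC-rich sites and CACCC boxes. The genes described here are KLF2, KLF3, KLF4, KLF5, KLF6, KLF7, KLF9, KLF10, KLF11 and KLF13. They are part of the family, listed with earlier results of these data known, and the other KLF genes are given further below. All 10 were found among the 28514 gene symbols of the count table. Gene counts came from 9 poly-A RNA libraries of CI-huVEC, immortalized human umbilical vein endothelial cells from InSCREENeX, all at passage 31. One group holds 3 knockout clones (21, 22 and 23; genotype CCM3 -/-, made by CRISPR/Cas9 editing of exon 3 of CCM3) that were kept for 48 h on fibronectin, a matrix protein, coated at 5 µg/cm². A second group holds the same 3 clones without treatment, and the third holds 3 untreated wild-type lines (WT-1, WT-2 and WT-3). All 9 libraries carry the same clone label, HKO, and the labels name no fibronectin-treated wild-type cells and do not say that the wild-type lines are clones or separate cultures. Genotype and clonal origin therefore cannot be told apart, and p-values measure the spread between these libraries, which may be technical.

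In endothelium KLF2 and KLF4 are known as factors induced by laminar blood flow, through a kinase cascade from MEKK3 over MEK5 and ERK5 to MEF2 transcription factors, and they promote anticoagulant, vasodilator and anti-inflammatory gene expression. CCM proteins restrain MEKK3, and raised KLF2 and KLF4 are a known feature of cells that lack a CCM protein. Other family members have other partners. KLF3 recruits CtBP co-repressors, KLF9, KLF10, KLF11 and KLF13 recruit the SIN3A co-repressor, and KLF5, KLF6 and KLF7 are mostly described as activators in growth, injury and differentiation.

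Total counts per library lay between 24406001 and 33971610. The edited gene is listed as PDCD10. Its mean CPM (counts scaled to library size, with TMM factors) was 36.4 ± 1.30 in knockout clones on fibronectin and 38.5 ± 3.43 in untreated knockout clones. In wild-type lines it was 49.3 ± 3.49 CPM (SD, n = 3 each). Every knockout library lay below every wild-type library. Untreated clones over wild-type gave -0.36 on the log2 scale, with 0.00186 as the adjusted p of edgeR's quasi-likelihood test. Clones on fibronectin gave -0.44, with 3.26e-04 from the same test. Gene counts thus showed a lower PDCD10 level in the clones, but not the edit itself. All 10 endothelial markers examined were detected in every group, with summed levels of 6338 to 7247 CPM in knockout on fibronectin, 6118 to 6589 CPM in knockout and 2665 to 3004 CPM in wild-type libraries. VWF made up the largest part of the knockout sums, with means of 2974, 2686 and 325 CPM in the groups in that order. PECAM1, KDR, TEK, TIE1 and CLDN5 also had higher means in both knockout groups than in wild-type. CDH5 and ERG had lower means in both, and EGFL7 and ROBO4 were higher only on fibronectin. The 5 epithelial markers summed to at most 1.40 CPM and the 5 fibroblast markers to at most 1.31 CPM in any library, with KRT14 and LUM at 0 counts throughout. Of the 5 smooth muscle and pericyte markers, which summed to 8.73 to 9.60, 9.72 to 10.5 and 84.9 to 93.4 CPM in the groups in the same order, RGS5 made up most of the wild-type level, and MYH11 had at most 7 counts and CNN1 at most 1 count in a library. The 5 leukocyte markers summed to 30.9 to 33.7, 25.7 to 27.9 and 17.3 to 18.1 CPM, nearly all from CD68, while PTPRC had at most 3 counts in a library. In bulk RNA, more cells of a state and more RNA per cell cannot be told apart, and the part of these marker differences in the KLF values was not tested.

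The first question was which KLF genes differed between untreated knockout clones and wild-type lines. Of the 10 genes, all of which passed the filter on low counts with at least 82 counts in every library, 4 rose (KLF2, KLF4, KLF11 and KLF3), 3 fell (KLF6, KLF7 and KLF5) and 3 were not called (KLF9, KLF10 and KLF13). The test was edgeR's quasi-likelihood test with Benjamini-Hochberg adjustment over all 13802 tested genes, with 0.05 as the threshold for a call. By the same rule 50.1% of all tested genes were called, 23% up and 27% down, so a call alone does not mark out a KLF gene. The groups did not overlap for those same 7 genes, against 61.5% of all tested genes. The median log2 fold change was 0.06 over the 10 genes and -0.03 over all tested genes. By size of the log2 fold change KLF2 ranked 142nd and KLF4 159th from the highest of all tested genes, while KLF11 ranked 821st and KLF3 1914th.

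**Figure D1:**
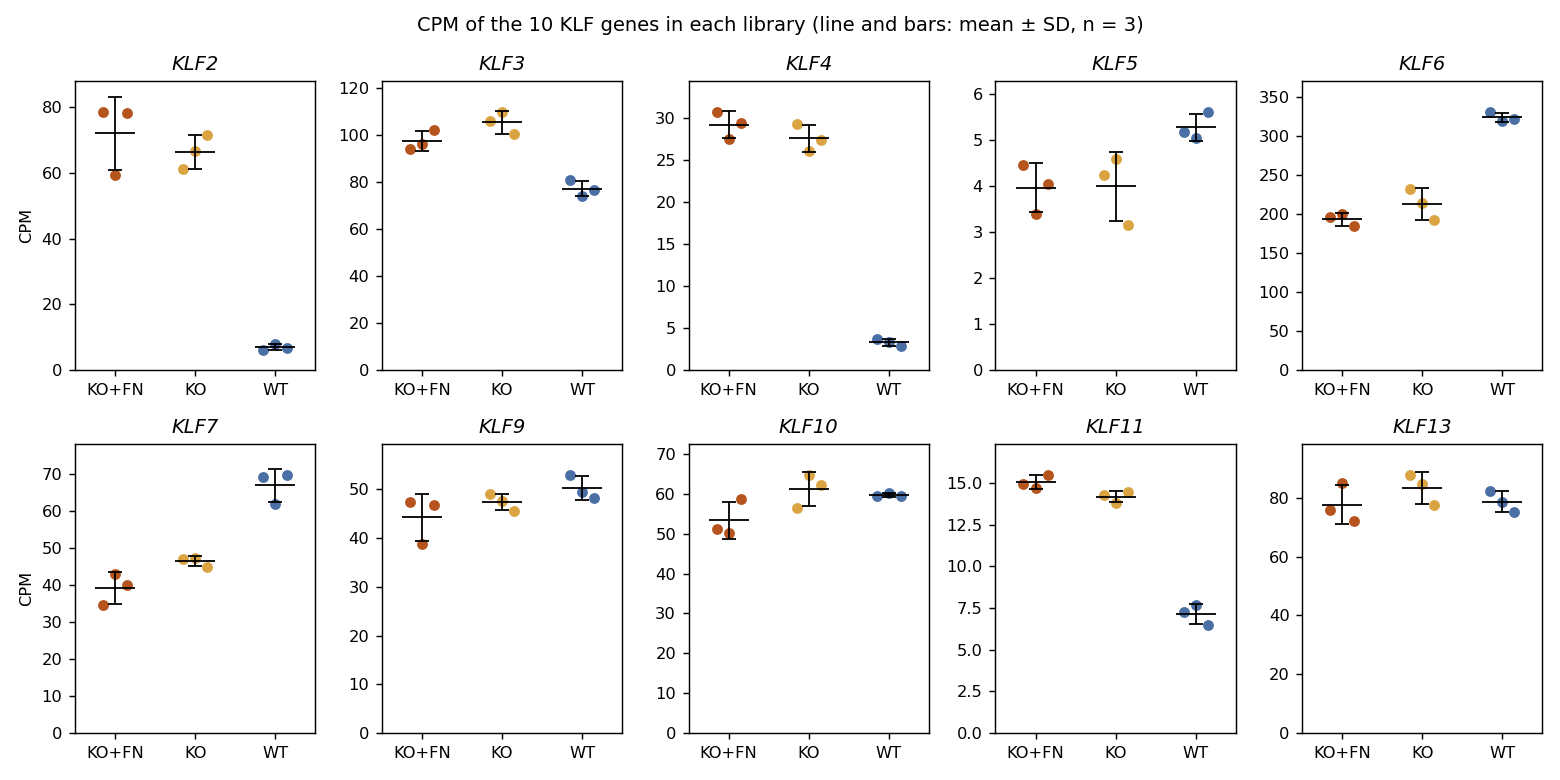
CPM of each KLF gene (vertical axis, from 0, own scale per gene) in knockout clones on fibronectin (KO+FN), untreated knockout clones (KO) and wild-type lines (WT). Points are libraries, and the line with bars is the mean ± SD (n = 3). KLF2, KLF3, KLF4 and KLF11 lay above wild-type in all 6 knockout libraries, and KLF5, KLF6 and KLF7 lay below it in all 6.

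KLF2, which controls endothelial quiescence under flow, had 61.1, 66.5 and 71.4 CPM in clones 21, 22 and 23, against 6.13, 7.97 and 6.89 CPM in WT-1, WT-2 and WT-3. The lowest knockout library thus lay well above the highest wild-type library. The log2 fold change was 3.24 (SE 0.13, 95% interval 2.96 to 3.52, adjusted p = 9.54e-10), and under 11 alternative settings it ran between 3.18 and 3.35. KLF4, a flow-induced factor that shares many targets with KLF2, had 29.2, 26.0 and 27.4 CPM in clones 21, 22 and 23, against 3.73, 3.33 and 2.92 CPM in the wild-type lines. These groups also lay far apart, with a log2 fold change of 3.05 (SE 0.10, 95% interval 2.83 to 3.27, adjusted p = 5.42e-11). The intervals of the 2 fold changes overlapped, and the difference between them was not tested. In the deposited FPKM, which divide by gene length so that levels of different genes can be compared, KLF2 was 3.85, 4.71 and 4.80 times the level of KLF4 in the knockout clones and 3.03, 4.40 and 4.34 times in the wild-type lines, and these ranges overlapped.

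Because KLF2 and KLF4 moved together, the 250 bases before their transcription starts are shown from RefSeq (GRCh38.p14), each 5′ to 3′ on the strand of its gene. The counts themselves were made on hg19 and carry no coordinates. Capitals mark every match to a MEF2-type motif (CTA and TAG with any 4 bases between them), to a CACCC box (CACCC) and to a GC box (GGGCGG), searched on both strands, and the matches shown did not overlap apart from GC boxes that lie end to end.
KLF2, chr19:16324576-16324825, plus strand: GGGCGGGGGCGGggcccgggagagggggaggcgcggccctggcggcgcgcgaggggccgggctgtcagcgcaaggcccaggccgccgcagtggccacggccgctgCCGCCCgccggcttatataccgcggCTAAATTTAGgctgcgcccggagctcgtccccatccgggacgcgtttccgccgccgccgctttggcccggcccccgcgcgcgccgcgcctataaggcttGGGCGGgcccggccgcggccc
KLF4, chr9:107489770-107490019, minus strand: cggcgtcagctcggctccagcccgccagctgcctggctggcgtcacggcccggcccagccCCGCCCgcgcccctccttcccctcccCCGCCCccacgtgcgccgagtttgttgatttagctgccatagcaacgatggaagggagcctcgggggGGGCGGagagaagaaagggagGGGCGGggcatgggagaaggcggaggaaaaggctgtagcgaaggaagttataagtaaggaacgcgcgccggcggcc

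The KLF2 window held 1 MEF2-type match, CTAAATTTAG, from 120 to 111 bases before the start, and 4 GC boxes. The KLF4 window held 4 GC boxes and no MEF2-type match, which says only that these letters are not in this window. Over the 35116 promoter windows of the RefSeq table, 2.36% held the MEF2-type motif, 42.6% a GC box and 54.7% a CACCC box. A total of 8 of the 10 KLF genes had at least 1 window in the table, 13 windows in all. One of the 2 windows of KLF11 also matched the MEF2-type motif, with the letters CTAGCGGTAG. A narrower search, added after these matches were seen, required A or T at every middle base, as MEF2 factors prefer. Of the windows of these 10 KLF genes 1 matched, that of KLF2, beside 0.515% of all windows.

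KLF11, a TGF-beta-inducible repressor, had 14.3, 13.8 and 14.5 CPM in clones 21, 22 and 23, against 7.24, 7.67 and 6.50 CPM in the wild-type lines. The groups did not overlap, and the log2 fold change of KLF11 was 0.99 (SE 0.09, adjusted p = 1.07e-06 by edgeR's quasi-likelihood test). KLF3, the CtBP-binding repressor, had 106.1, 109.8 and 100.3 CPM in knockout and 80.7, 74.3 and 76.7 CPM in wild-type libraries. Its rise was small beside those of KLF2 and KLF4, at a log2 fold change of 0.45 (SE 0.06, adjusted p = 3.35e-05), and the libraries of the groups did not overlap. KLF3 has an antisense gene, KLF3-AS1, in the GENCODE annotation, and KLF11 has one too. The strand setting of the counting is not given in the sources used here, so reads of the antisense partner may be included in both genes.

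KLF6, an injury-response factor and the most abundant member in wild-type cells, had 232, 214 and 192 CPM in clones 21, 22 and 23, against 330.4, 319 and 321 CPM in the wild-type lines. All 3 clones lay below all 3 wild-type lines, and the log2 fold change of KLF6 was -0.61 (SE 0.07, adjusted p = 6.17e-06). KLF7, best known from neuronal development, had 46.9, 47.4 and 44.9 CPM in knockout and 69.2, 61.8 and 69.8 CPM in wild-type libraries. The groups did not overlap, and the log2 fold change of KLF7 was -0.53 (SE 0.08, adjusted p = 0.000113).

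KLF5, an activator of proliferation in epithelium and smooth muscle, lay low in these cells, with 4.25, 4.59 and 3.15 CPM in clones 21, 22 and 23 and 5.17, 5.05 and 5.61 CPM in the wild-type lines. Its log2 fold change was -0.40 (SE 0.16, adjusted p = 0.0469 by edgeR's quasi-likelihood test). Among the called genes described here, its call was the least secure. The adjusted p was 0.106, 0.0745 and 0.130 without WT-1, WT-2 and WT-3, and 0.0685 and 0.201 without clones 21 and 23. The log2 fold change stayed between -0.51 and -0.25 under 11 alternatives, of which 3 called it. The authors' deposited table gives KLF5 a log2 fold change of -0.35 with an adjusted p of 0.157 in this comparison. For the other 6 called genes the authors' deposited table has the same direction, with adjusted p-values no higher than 5.93e-10.

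The members that were not called span different roles. KLF9, a glucocorticoid- and thyroid hormone-responsive repressor, averaged 47.4 ± 1.72 CPM in knockout and 50.2 ± 2.505 CPM in wild-type libraries (SD, n = 3 each), with a log2 fold change of -0.08 and a 95% interval of -0.26 to 0.09. KLF10, like KLF11 a TGF-beta-inducible gene, averaged 61.2 ± 4.30 and 59.8 ± 0.453 CPM in the same groups, with an interval of -0.12 to 0.19. KLF13, a relative of KLF9 first known from lymphocytes, averaged 83.4 ± 5.35 and 78.7 ± 3.55 CPM, with an interval of -0.07 to 0.24. These intervals leave out changes of the size seen in KLF2, KLF4, KLF6, KLF7 and KLF11. Of the TGF-beta-inducible pair, KLF11 was called and KLF10 was not, and the difference between their fold changes was not tested.

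**Figure D2:**
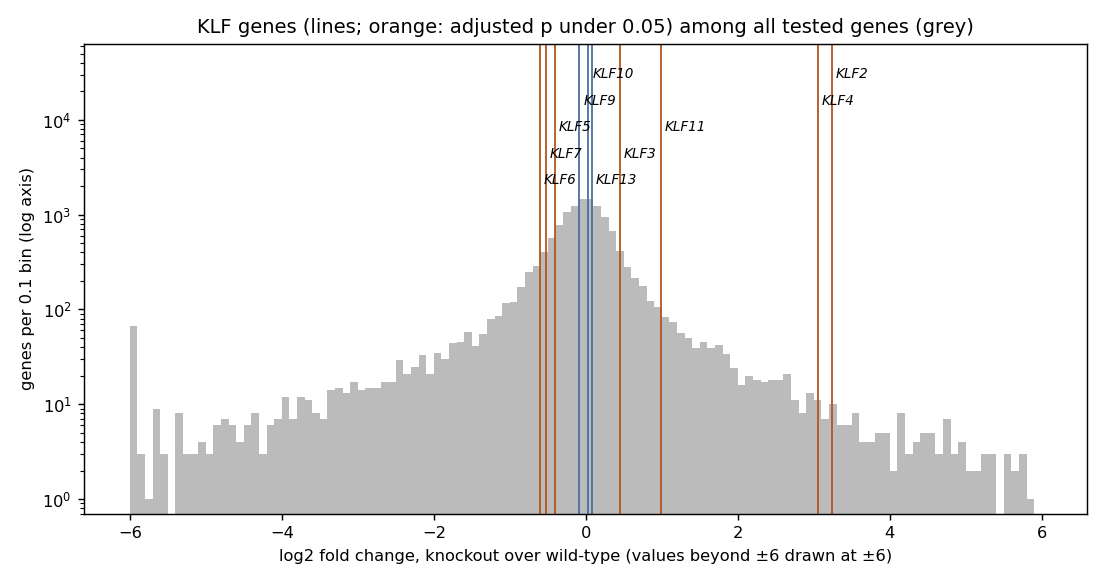
Distribution of log2 fold changes (horizontal axis, knockout over wild-type) over the 13802 tested genes as a grey histogram with a log vertical axis, with the 10 KLF genes as lines. Orange lines mark an adjusted p under 0.05, blue lines the rest, and values beyond ±6 are drawn at ±6. KLF2 at 3.24 and KLF4 at 3.05 lie in the far right of the distribution, and the other 8 lie between -0.61 and 0.99.

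Per length of gene, the makeup of these 10 KLF genes differed between the groups. KLF12 and KLF16, at means of 28.4 and 22.2 CPM in wild-type libraries, are not among them. The shares below are thus not shares of all KLF genes. The summed FPKM of the 10 genes was 131 ± 5.24 in knockout on fibronectin, 138 ± 3.08 in knockout and 119 ± 3.21 in wild-type libraries (SD, n = 3 each). KLF6 made up 26.3% ± 2.11, 27.8% ± 2.23 and 49.8% ± 0.182 of that sum in the groups in the same order. KLF2 and KLF4 together made up 33.6% ± 3.16, 30.1% ± 2.27 and 3.83% ± 0.421. By CPM, which is not divided by gene length, their share was 16.2%, 14.1% and 1.52% and that of KLF6 30.9%, 31.8% and 47.7%, so that KLF6 lay above the pair in all 3 groups. These shares are relative, so a higher share of one gene lowers all others, and no test was run on them.

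In wild-type libraries the order of FPKM levels was KLF6 (59.3 ± 1.54 FPKM), KLF10 (15.8 ± 0.234), KLF3 (11.7 ± 0.560), KLF13 (9.89 ± 0.548), KLF9 (8.24 ± 0.491), KLF7 (6.78 ± 0.429), KLF2 (3.63 ± 0.478), KLF11 (1.51 ± 0.138), KLF5 (1.35 ± 0.0629) and KLF4 (0.937 ± 0.124). Only KLF11 and KLF5 had overlapping ranges as neighbours in that order. In knockout libraries KLF6 (38.4 ± 3.74 FPKM) and KLF2 (33.9 ± 2.55 FPKM) led with overlapping ranges, and KLF4 (7.63 ± 0.446 FPKM) lay beside KLF9 (7.66 ± 0.297 FPKM), again with overlap. In knockout on fibronectin KLF2 (36.2 ± 5.35 FPKM) had the highest mean, and its range overlapped that of KLF6 (34.4 ± 1.38 FPKM). KLF4 thus stood last of the 10 in wild-type libraries, 7th in knockout and 6th in knockout on fibronectin, while KLF5 was last in both knockout groups.

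**Figure D3:**
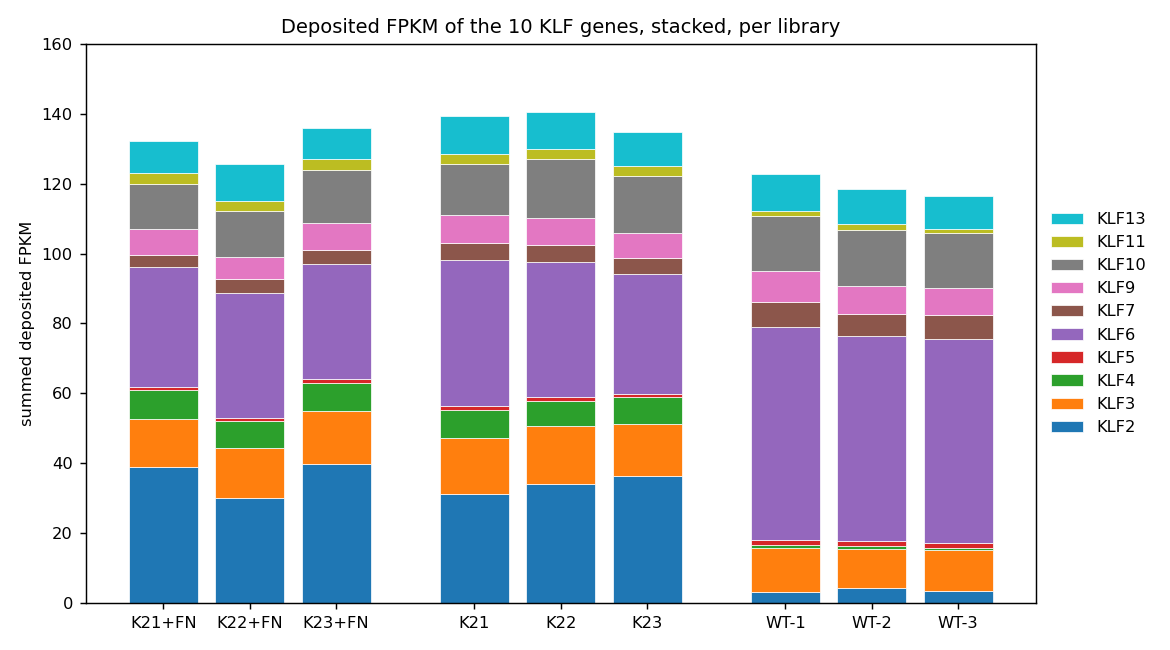
Deposited FPKM of the 10 KLF genes stacked per library (vertical axis, summed FPKM from 0), with the clones on fibronectin (K21+FN to K23+FN), the untreated clones (K21 to K23) and the wild-type lines (WT-1 to WT-3) from left to right. KLF2 (bottom) is wide in the 6 knockout libraries and thin in wild-type, where KLF6 makes up about 49.8% of the stack.

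The second question was how the clones on fibronectin differed from wild-type lines. This comparison shares its wild-type libraries with the first, so its values are given beside them and not as a second line of evidence. KLF2 had 78.5, 59.3 and 78.3 CPM and KLF4 had 30.7, 27.5 and 29.3 CPM in clones 21, 22 and 23 on fibronectin, all above the highest wild-type values of 7.97 and 3.73 CPM. The log2 fold changes were 3.36 (SE 0.13, adjusted p = 6.00e-10) and 3.13 (SE 0.10, adjusted p = 3.93e-11). Again 4 of 10 genes rose and 3 fell, the same genes in the same directions, where 58.7% of all tested genes were called, 29% up and 29.6% down. KLF11 had a log2 fold change of 1.08 (SE 0.09) and KLF3 of 0.34 (SE 0.06), whereas KLF6 fell by 0.75 (SE 0.07) and KLF7 by 0.77 (SE 0.08) on the log2 scale.

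On fibronectin against wild-type KLF5 had a log2 fold change of -0.41 (SE 0.16, adjusted p = 0.0395), again on the edge of the threshold. Its adjusted p was 0.0722, 0.0619 and 0.116 without WT-1, WT-2 and WT-3, and 0.125 and 0.0794 without treated clones 22 and 23. KLF9 and KLF10 missed the threshold with adjusted p-values of 0.0685 and 0.0736, at log2 fold changes of -0.18 and -0.16. Every treated clone lay below every wild-type line in both genes, and groups without overlap were found for 9 of the 10 genes, against 64.3% of all tested genes. KLF9 passed without treated clone 21 (adjusted p = 0.0494) and KLF10 without treated clone 23 (adjusted p = 0.0169). KLF13 averaged 77.7 ± 6.63 CPM on fibronectin and 78.7 ± 3.55 CPM in wild-type libraries (SD, n = 3 each), with a log2 fold change of -0.02.

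**Figure D4:**
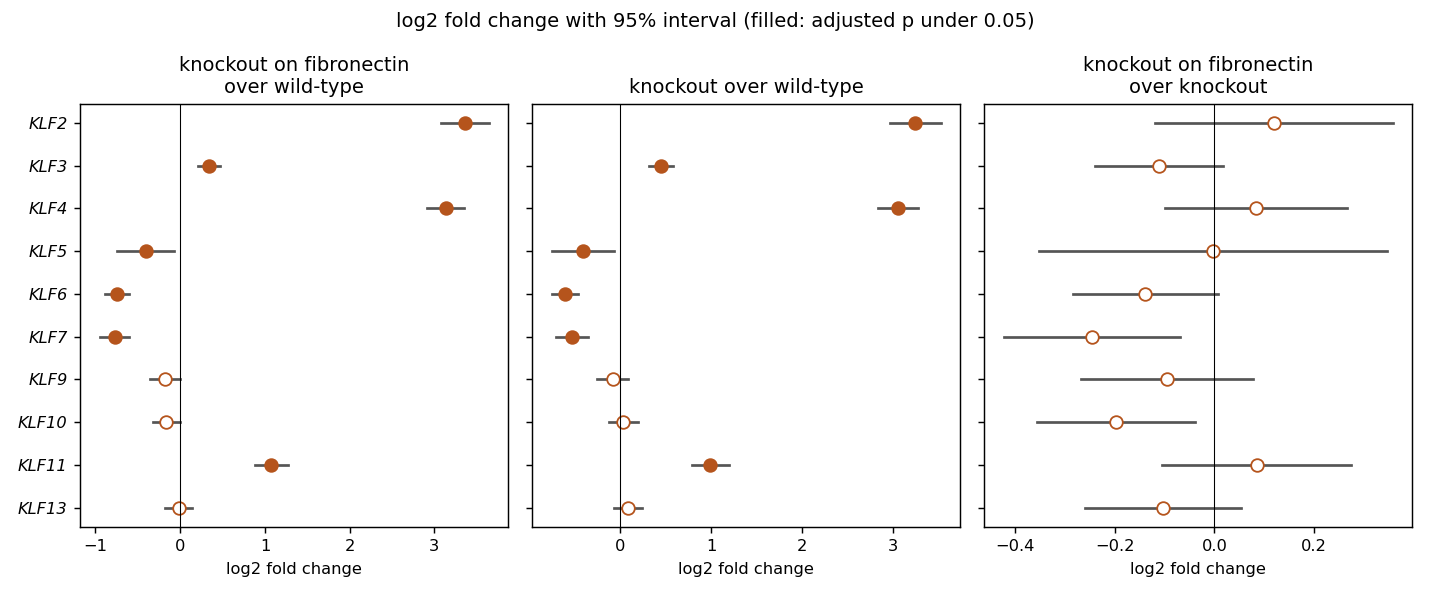
log2 fold change (horizontal axis) of each KLF gene in the 3 comparisons, with its 95% interval from the edgeR fit. Filled points passed an adjusted p of 0.05, and the right panel has its own, narrower axis. All 3 panels show the fit over 9 libraries, which ignores the pairing of clones. The right panel has no filled point, while 7 of 10 points are filled in each of the other panels. With the clone as a block, not drawn here, KLF7 was called between treated and untreated clones.

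The third question was what 48 h on fibronectin changed within the knockout clones. None of the 10 KLF genes was called by edgeR's quasi-likelihood test, with 2 at an unadjusted p under 0.05 (KLF7 and KLF10), and 0.00725% of all tested genes, 1 gene, was called. That single gene was TAGLN, which encodes an actin-binding protein. The count over all genes hung on single libraries, at 0 without any one of the untreated clones 21, 22 and 23, and at 488 without treated clone 22. With the clone as a block, 899 of 13257 genes (6.78%) were called and 1 of the 10 KLF genes, KLF7, with an adjusted p of 0.0472. In that fit KLF10 and KLF6 had unadjusted p-values of 0.00762 and 0.0216 and adjusted ones of 0.0718 and 0.119. DESeq2 called 987 genes and, of the KLF genes, KLF7 alone (adjusted p = 0.0448).

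KLF7 had 34.4, 42.9 and 40.1 CPM in clones 21, 22 and 23 on fibronectin, against 46.9, 47.4 and 44.9 CPM in the same clones untreated. Each treated library lay below every untreated one, and the log2 fold change was -0.25 (SE 0.08, 95% interval -0.42 to -0.07, adjusted p = 0.122) without the block and -0.27 (SE 0.08) with it. Clone 21 had the widest gap, at -0.45 on the log2 scale, beside -0.14 in clone 22 and -0.16 in clone 23. KLF11 was the other gene whose groups did not overlap, where 25.4% of all tested genes had no overlap. It had 14.95, 14.7 and 15.5 CPM on fibronectin and 14.3, 13.8 and 14.5 CPM untreated, with a log2 fold change of 0.09 (adjusted p = 0.611).

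KLF2 was higher on fibronectin in clone 21 (0.36 on the log2 scale) and clone 23 (0.13) and lower in clone 22 (-0.17). In the fit without the block, its log2 fold change over the clones was 0.12 with a 95% interval of -0.12 to 0.36. A change larger than that in either direction lies outside the interval. With the block the log2 fold change of KLF2 was 0.09 (SE 0.08). KLF4 was slightly higher in each clone, by 0.07, 0.08 and 0.10 on the log2 scale, with an interval of -0.10 to 0.27 without the block. Neither gene of the flow-induced pair was called between treated and untreated clones. KLF6, KLF7 and KLF10 were lower in all 3 clones, KLF4 and KLF11 were higher in all 3, and the other 5 genes were mixed. KLF10 had the second-lowest log2 fold change, -0.20 (SE 0.07, adjusted p = 0.147) without the block and -0.22 (SE 0.08, adjusted p = 0.0718) with it. In clones 21, 22 and 23 it was -0.14, -0.37 and -0.09. KLF5 differed most between clones in this measure, at 0.07, -0.44 and 0.36, and its counts were low, from 82 to 137 in these 6 libraries.

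**Figure D5:**
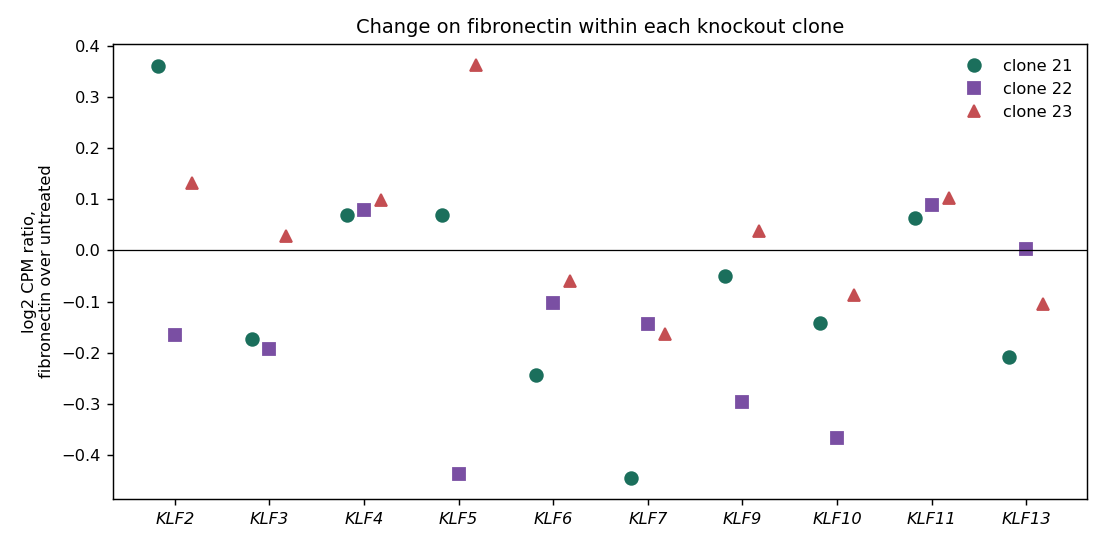
log2 ratio of CPM on fibronectin over untreated (vertical axis) for each KLF gene within clones 21, 22 and 23. KLF6, KLF7 and KLF10 lie below 0 in all 3 clones and KLF4 and KLF11 lie above 0 in all 3.

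Differences among the 3 clones were examined apart from treatment. A test of the clone term over the 6 knockout libraries called none of the 10 KLF genes, against 3.79% of 13257 genes, and 0 of the 10 had an unadjusted p under 0.05. The smallest unadjusted p values were those of KLF6 (0.0659) and KLF2 (0.0758). KLF6 was 0.19 lower on the log2 scale in clone 23 than in clone 21. KLF2 was 0.15 lower in clone 22 and 0.10 higher in clone 23 than in clone 21. By DESeq2's likelihood-ratio test the count was 0 as well.

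The rest of the KLF and SP family was examined from a list of 16 genes, of which 10 were tested. In knockout against wild-type 2 rose, 4 fell and 4 were not called, with a median log2 fold change of -0.25. Of all tested genes 23% rose and 27% fell in that comparison, and 29% rose and 29.6% fell on fibronectin against wild-type. A count near these shares does not mark out a list. KLF8, a CtBP-binding repressor like KLF3, had 17 to 57 counts in knockout and 2 to 4 counts in wild-type libraries, a log2 fold change of 3.77 (SE 0.56) at a mean of 1.47 CPM. KLF12, a further CtBP-binding repressor, averaged 19.7 ± 0.935 CPM in knockout and 28.4 ± 2.77 CPM in wild-type libraries (SD, n = 3 each) and fell by 0.53 on the log2 scale, so the repressors of that subgroup moved in different directions. SP8 had 0 counts in all 6 knockout libraries and 53 to 62 counts in wild-type libraries, at least 54.5-fold lower in knockout, taking a floor of 3 counts over the group. SP4 fell by 0.80 and SP3, a widely expressed GC box factor, by 0.30 on the log2 scale, and SP6 rose by a log2 fold change of 0.98. KLF15, KLF16, SP1 and SP2 were not called, with log2 fold changes of -0.70, -0.10, -0.10 and -0.20. On fibronectin against wild-type 2 rose and 5 fell, SP1 being the added one, and none was called between treated and untreated clones, with or without the clone as a block.

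Upstream, the list of the MEKK3, MEK5, ERK5 and MEF2 route, with its CCM proteins and the class IIa histone deacetylases that bind MEF2 factors, had 14 tested genes, of which 5 rose, 1 fell and 8 were not called in knockout against wild-type (median 0.17). MEF2A, which encodes a MEF2 factor, averaged 91.1 ± 1.76 CPM in knockout and 55.4 ± 0.458 CPM in wild-type libraries (SD, n = 3 each) and rose by a log2 fold change of 0.72, whereas MEF2C (0.11) and MEF2D (-0.14) were not called. MAP3K3, which encodes MEKK3, fell by 0.40 on the log2 scale. CCM2L and HEG1, which belong to the CCM protein network, had log2 fold changes of 3.43 and 1.52. Of the 4 deacetylases HDAC9 was among those that rose in knockout (1.30, adjusted p = 0.0219 by edgeR's quasi-likelihood test) and HDAC5 among those that rose on fibronectin (0.51). HDAC9 had only 4 to 15 counts in wild-type and 19 to 35 in knockout libraries. On fibronectin against wild-type HDAC9 was not called (adjusted p = 0.0621 by the same test). On fibronectin 7 rose and 2 fell against wild-type. The shares over all tested genes were 23% up and 27% down in knockout, and 29% up and 29.6% down on fibronectin.

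Known downstream genes were counted from 2 lists. One holds genes known to be induced by KLF2 or KLF4 in endothelium or where a CCM protein is lacking. The other holds genes lowered by KLF2 or KLF4 in endothelium. Of 13 induced genes 11 were tested, and all 11 rose in knockout against wild-type, with a median log2 fold change of 1.85. ADAMTS4, a proteoglycan-cleaving protease, averaged 63.6 ± 3.68 CPM in knockout and 8.95 ± 1.02 CPM in wild-type libraries, and ASS1, an enzyme of arginine synthesis, averaged 70.0 ± 5.11 and 2.48 ± 0.293 CPM (SD, n = 3 each). THBD, the anticoagulant receptor thrombomodulin, and PPAP2B, a lipid phosphatase, had log2 fold changes of 1.95 and 1.64. Of 10 lowered genes 6 fell, 1 rose and 3 were not called (median -1.23). CXCR4, a chemokine receptor, IL8, a chemokine, and ANGPT2, an antagonist of the TEK receptor, had log2 fold changes of -4.13, -3.31 and -2.27, and KDR, a VEGF receptor, was the one that rose, by 0.999. The counts on fibronectin against wild-type were the same in both lists, 11 up, and 1 up and 6 down. Among all tested genes 23% rose and 27% fell in knockout, and 29% rose and 29.6% fell on fibronectin. These lists were drawn up with earlier results of these data known, so they are not independent evidence of a direction. The induced list also admits genes for a rise where a CCM protein is lacking, so its rise in CCM3 knockout clones was partly built in.

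Partners and turnover genes of KLF proteins were counted next. Of 11 co-repressors and co-activators 2 rose, 3 fell and 6 were not called in knockout against wild-type (median -0.04). HDAC1, a histone deacetylase, and KAT2B, an acetyltransferase, rose by log2 fold changes of 1.01 and 1.17, while the acetyltransferase EP300 and the co-repressor SIN3B had log2 fold changes of -0.65 and -0.33. SIN3A, CTBP1 and CTBP2 were not called, at 0.03, -0.07 and -0.04. Of 6 ubiquitin ligase components known to act on KLF2, KLF4 or KLF5, 5 fell and 1 rose (median -0.39). WWP1, SMURF1 and FBXO32 had log2 fold changes of -0.59, -0.63 and -0.54, and FBXW7 rose by a log2 fold change of 0.42. On fibronectin against wild-type the counts were 2 up and 4 down among partners and again 1 up and 5 down among turnover genes. Beside these counts, 23% of all tested genes rose and 27% fell in knockout, and 29% rose and 29.6% fell on fibronectin.

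Other gene classes to which KLF genes belong were set beside them. Among 15 tested immediate early genes, a class that KLF2, KLF4, KLF6 and KLF10 share, 2 rose, 5 fell and 8 were not called (median -0.28). EGR1, FOSL2 and JUN had log2 fold changes of -1.61, -0.48 and -0.47, and FOSL1 rose by 0.80, at 64.6 ± 9.33 CPM in knockout and 37.2 ± 1.25 CPM in wild-type libraries (SD, n = 3 each). Of 10 genes of the TGF-beta pathway, which induces KLF10 and KLF11, 8 fell, 2 were not called and 0 rose (median -0.46), with TGFB2, SMAD7, SKIL and TGFB1 at -1.71, -1.38, -1.18 and -1.01. KLF11 rose and KLF10 was not called, while TGFB1 and TGFB2 fell, and a link between these values was not tested. Of 8 glucocorticoid receptor genes and targets, a class that holds KLF9, 2 rose, 4 fell and 2 were not called (median -0.40). TSC22D3 rose by a log2 fold change of 1.31, while SGK1, ZBTB16 and NR3C1, the receptor gene itself, fell by 2.26, 1.07 and 0.67. On fibronectin against wild-type the counts were 3 up and 7 down, 0 up and 9 down, and 2 up and 3 down in these lists. For comparison, 23% of all tested genes rose and 27% fell in knockout, and 29% rose and 29.6% fell on fibronectin. Between treated and untreated clones no gene of the 9 lists was called in the fit over 9 libraries, which ignores the pairing of clones. With the clone as a block, run on the lists after the other values were seen, 8 of 93 list genes were called, beside 6.78% of all genes tested in that fit. HDAC5, CCM2 and ASS1 rose on fibronectin, by log2 fold changes of 0.40, 0.30 and 0.41. ANGPT2, FOSB, SKIL, PIAS1 and ADAMTS9 had log2 fold changes of -0.70, -1.51, -0.30, -0.32 and -0.26, FOSB at a mean of 0.192 CPM on fibronectin and 0.531 CPM untreated.

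Genes with the profiles most like those of the KLF genes were found by the root-mean-square difference of log2 CPM relative to the wild-type mean, over 9 libraries and among the 10205 genes averaging 5 CPM or more. Nearest to KLF2 were CFB, complement factor B (0.19), CTSH, a lysosomal protease (0.22), and MYEOV (0.22). Nearest to KLF4 were UBE2L6, a conjugating enzyme for the ubiquitin-like protein ISG15 (0.14), VWF, von Willebrand factor (0.18), and SLCO2A1, a prostaglandin transporter (0.20). KLF11 lay nearest to ZNF438 (0.070), DNASE1L1 (0.076) and SLC48A1 (0.078), and KLF3 to ESYT2 (0.034), PRMT3 (0.041) and ERAP2 (0.043). KLF6 lay nearest to FNBP1L (0.039), PDE4B (0.051) and PELI1 (0.052), and KLF7 to USP34 (0.041), ZNF37A (0.042) and MED14 (0.042). For KLF9 the nearest were SREK1IP1, CCPG1 and TMEM50A, for KLF10 CAPN7, ANXA5 and PIK3CB, and for KLF13 DNAJC14, RAD50 and ST6GAL1, all within 0.035 to 0.059, and KLF5 had a mean below 5 CPM. Such likeness describes these 9 libraries, which share the group differences of many genes.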

How the data were processed

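Poly-A RNA of 9 libraries was sequenced from stranded TruSeq libraries, per the labels' protocols. Raw counts for each gene symbol were deposited, and per the submitters' processing notes STAR, HTSeq and the hg19 (GRCh37) build were used, without versions. The authors also deposited FPKM values, used here only to compare levels between genes, and their own tables of log2 fold changes with p-values and mean normalized counts, whose program is not given in the sources used here.

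Counts were tested with edgeR 4.0.16 in R 4.3.3 (quasi-likelihood F test, robust, TMM, filterByExpr with a minimum count of 10 and total of 15) in 1 fit over all libraries. Benjamini-Hochberg adjustment ran over all 13802 tested genes, with a threshold of 0.05. SE and 95% intervals come from that fit. Replicates of a group differed by more than sampling noise (chi-square per degree of freedom 5.37 to 21.8). Treated and untreated libraries come from the same clones, so clone numbers pair them: deviations from group means correlated at r = 0.37, 0.45 and 0.54 within clones over 10205 genes and at -0.50 to 0.03 between clones. The procedure was tested on simulated data. DESeq2 1.42.0 was an alternative. All 10 KLF genes are named, with PDCD10, up to 4 genes of the smallest p per list, the tested KLF and SP genes, and the 3 genes nearest in profile. Other genes are named where a count of 5 or fewer or a text comparison turns on them (TAGLN, KDR, MEF2C, MEF2D, SIN3A, CTBP1, CTBP2, HDAC5, HDAC9 and the list genes called with the clone as a block), chosen after their values were seen. One gene that this rule names is not reported here. Members and lists were chosen with earlier results of these data known. Overlapping genes are from GENCODE 29 (GRCh38). No column was left without a sample.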

Additional observations from a re-analysis of the deposited data

How the results depend on the processing

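Of the 7 called KLF genes, KLF2, KLF3, KLF4, KLF6, KLF7 and KLF11 kept direction and call in both comparisons with wild-type under all 11 alternatives each (other size factors, DESeq2, no filter, only the groups compared, total counts with no TMM, added after seeing the data, and each library left out). KLF5 did not, as given beside its values, and the cause was not tested. With DESeq2 size factors, DESeq2's test and only the groups compared its adjusted p in knockout was 0.0554, 0.0865 and 0.0543. With total counts KLF9 and KLF10 passed on fibronectin against wild-type (adjusted p = 0.0287 and 0.0320). Signs turned in genes that were not called: KLF10 in knockout without clone 22 (-0.0057), KLF13 on fibronectin without WT-1, treated clone 21 or treated clone 23 (0.014, 0.012 and 0.042; range over left-out libraries -0.086 to 0.042), and KLF5 between treated and untreated clones without untreated clone 21 or 22 or treated clone 22 (0.034, 0.11 and 0.092; range -0.15 to 0.11). Between treated and untreated clones 987 genes were called by DESeq2, 383 with no filter on low counts, 0 with only the groups compared and 899 with the clone as replicate block, against 1 in the fit over 9 libraries, and leaving out 1 library gave 0 to 488. KLF genes called there were 1 by DESeq2 and 1 with the replicate block, against 0, and the block called no other KLF gene; of the list genes it called 8 of 93, against 0. Differences among clones were called for 502 genes, 825 with no filter and 263 by DESeq2. By CPM instead of FPKM, KLF2 and KLF4 together made up 16.2% in knockout on fibronectin, 14.1% in knockout and 1.52% in wild-type, and KLF6 30.9%, 31.8% and 47.7%, since CPM is not divided by length. Low counts limit the precision of KLF5, and of KLF8, KLF15, SP6, SP8 and HDAC9 outside the 10 genes.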
